A study of Homo sapiens with 6 samples.

Results

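The Notch receptors and ligands are 10 genes here, taken by gene symbol from the 58735 genes of the deposited tables: the receptors NOTCH1 to NOTCH4, the ligands DLL1, DLL3, DLL4, JAG1 and JAG2, and the fringe glycosyltransferase LFNG. All 10 were found, and all 10 passed the filter on low counts. They were measured by RNA sequencing in SY5Y cells, a human neuroblastoma line of sympathetic neuronal character, in 3 libraries from cells with DLX5 overexpression and 3 from control cells. DLX5 is a transcription factor with a homeodomain like that of fly Distal-less, and the study asks how it relates to MYCN in neuroblastoma. Both groups were grown in the same serum-containing medium. The labels do not say how the overexpression was made, whether the control cells carried an empty vector, whether either line was a single clone, or whether the replicates were separate cultures. The p-values therefore measure only how these libraries vary, and that variation may be technical.

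Notch signalling runs between touching cells. A Delta or Jagged ligand on one cell binds a Notch receptor on the next, and the pull of ligand uptake exposes the receptor to cleavage by an ADAM protease and then by gamma-secretase. The freed intracellular part enters the nucleus, joins the DNA-binding protein RBPJ and a Mastermind coactivator, and switches on genes such as those of the HES and HEY repressors, which hold back proneural factors. Fringe enzymes add a sugar to the receptor and thereby shift its preference between Delta and Jagged ligands. In the sympathetic lineage the pathway is known for its part in the balance between progenitor and neuronal states, and in neuroblastoma for its link to the mesenchymal state.

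Each library held 14644077 to 16886026 counts. DLX5 stood between 1569 and 1677 CPM (counts scaled to a common library size, with TMM factors) in the libraries labelled as overexpressing and between 12.3 and 13.8 CPM in the controls, so every library matched its label. All 14 sympathetic neuroblastoma markers were tested and called lower with DLX5, their summed level lying at 2222 to 2390 CPM against 6650 to 7375 CPM. One of the 14, TH, with 2 reads against 80, passed the filter on low counts only through the controls and so had to be lower. Fibroblast markers moved the other way, with 7 of 8 tested higher and 0 lower and a summed level of 6478 to 6726 CPM against 1357 to 1397 CPM. Over all tested genes 29.8% were called higher and 28.8% lower. Blood cell markers summed to at most 1.32 CPM in any library. These are bulk libraries, in which fewer cells of a type and less RNA per cell cannot be told apart, and the part of these shifts in the results on Notch genes was not tested.

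All 10 Notch genes had reads in every library of both groups, and the levels of 9 differed. JAG1 rose 8.62-fold and NOTCH3 rose 2.95-fold, while LFNG fell 3.65-fold and DLL3 fell 2.28-fold (edgeR quasi-likelihood fit over all genes). Of the 10 genes, 5 were higher, 4 were lower and DLL1 did not pass, at a Benjamini-Hochberg adjusted p under 0.05. One of the 5, DLL4, passed the filter on low counts only through its DLX5 libraries. This has to be read against a background in which 58.6% of all 17269 tested genes passed, 29.8% as higher and 28.8% as lower. Among tested genes with a mean of at least 10 CPM, 67.5% passed, and all 7 of the Notch receptors, ligands and LFNG at that level did. A change that passed and was at least 2-fold, which 16.4% of tested genes showed, was found in 6 of the 10, DLL4 among them. The libraries of the groups did not overlap in CPM for 9 of the 10, against 62.5% of tested genes. The median log2 fold change of the 10 was 0.25, beside -0.0018 over all tested genes, with changes in both directions.

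**Figure D1:**
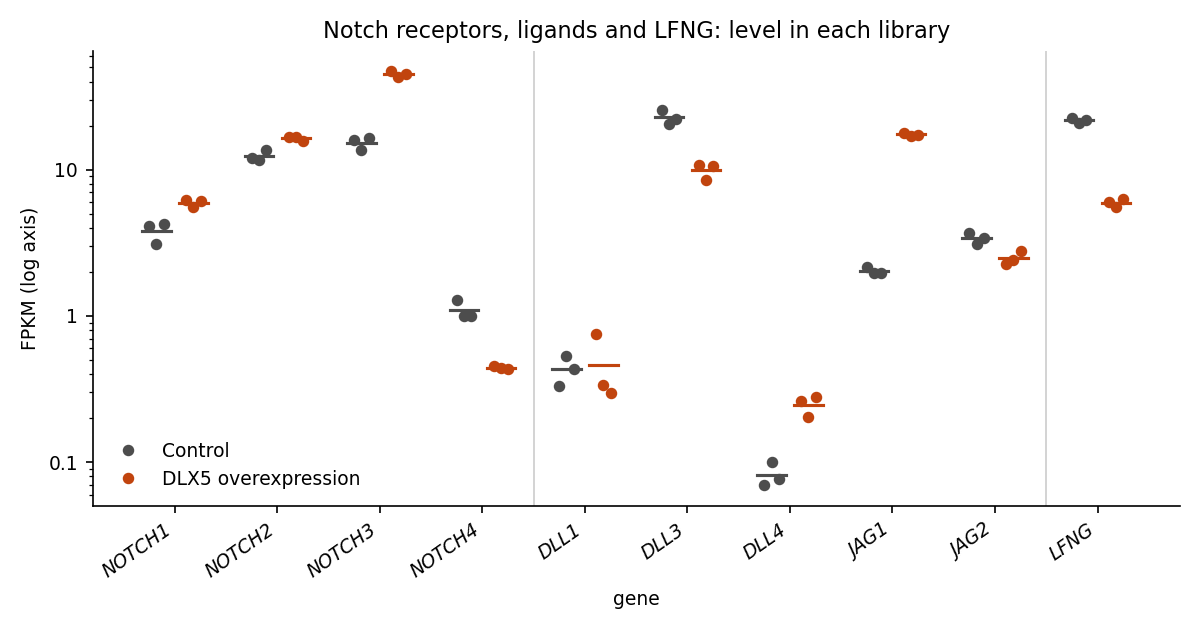
Level of each gene in each library in FPKM on a log axis. Dots are libraries, horizontal bars are means of 3 libraries, and grey vertical lines part the receptors, the ligands and LFNG. JAG1 lies at 17.1 to 17.9 FPKM with DLX5 and at 1.96 to 2.15 FPKM in control, LFNG and DLL3 lie lower with DLX5, and the DLL1 libraries of the groups overlap.

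The stretches of 250 bases before the annotated start are shown for the members that changed most among the well-expressed ones, JAG1, NOTCH3 and LFNG, and beside them for HES1, the best known target gene of the pathway (RefSeq, GRCh38.p14). They lie at chr20:10674000-10674249 on the minus strand for JAG1, chr19:15200996-15201245 on the minus strand for NOTCH3, chr7:2512279-2512528 on the plus strand for LFNG and chr3:194135898-194136147 on the plus strand for HES1. Capitals mark the RBPJ core TGGGAA and the GC box GGGCGG, on either strand. Each is written 5′ to 3′ on the strand of its gene.
JAG1: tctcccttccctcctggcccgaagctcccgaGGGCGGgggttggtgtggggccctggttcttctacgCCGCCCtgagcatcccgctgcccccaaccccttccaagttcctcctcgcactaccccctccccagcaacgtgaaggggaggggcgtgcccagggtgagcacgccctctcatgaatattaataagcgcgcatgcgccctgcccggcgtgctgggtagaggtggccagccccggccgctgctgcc
NOTCH3: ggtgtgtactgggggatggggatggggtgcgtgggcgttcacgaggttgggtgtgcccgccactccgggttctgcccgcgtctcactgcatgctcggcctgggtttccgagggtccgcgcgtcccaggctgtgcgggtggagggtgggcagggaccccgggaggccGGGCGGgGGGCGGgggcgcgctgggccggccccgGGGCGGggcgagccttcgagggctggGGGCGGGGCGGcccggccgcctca
LFNG: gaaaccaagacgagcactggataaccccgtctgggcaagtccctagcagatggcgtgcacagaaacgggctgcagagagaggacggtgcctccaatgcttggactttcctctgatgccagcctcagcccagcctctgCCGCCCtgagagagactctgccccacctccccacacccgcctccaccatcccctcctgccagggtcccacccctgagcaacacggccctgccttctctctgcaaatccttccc
HES1: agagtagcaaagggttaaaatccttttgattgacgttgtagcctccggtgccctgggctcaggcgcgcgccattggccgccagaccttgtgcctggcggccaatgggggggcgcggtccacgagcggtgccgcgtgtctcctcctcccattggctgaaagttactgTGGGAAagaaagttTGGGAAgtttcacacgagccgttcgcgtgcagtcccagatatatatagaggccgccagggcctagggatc

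The promoters of JAG1, NOTCH3 and LFNG have only GC boxes in capitals, 2 in JAG1, 5 in NOTCH3 and 1 in LFNG. HES1 has no GC box and a pair of RBPJ cores in the same orientation, whose first bases lie at -84 and -70 from the start. Of the 10 Notch genes 8 had an entry in the RefSeq table, with 9 entries in all because LFNG has 2. A core of TGGGAA was in 1 of these 9 entries, the inner LFNG start, against 20.8% of all 35116 promoter windows of this length. The core TAATT of distal-less homeobox factors was in 0 of the 9, against 23.1% of all windows, and GGGCGG was in 8 of the 9, against 42.6%. Letters of different motifs did not overlap in the 4 printed windows, while the GC boxes of NOTCH3 at -24 and -19 share 1 base. The GC content of the 9 windows ran from 57.2% to 81.6%, beside a median of 58.0% over all windows. Of 8 target genes looked up, 7 had an entry and 5 of these held TGGGAA, in HES1, HES4, HES5, HEYL and HEY2, while 0 of the 7 held TAATT. These matches describe letters in a short window and do not show that a factor binds there or elsewhere near the gene.

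NOTCH3 (ENSG00000074181, chromosome 19, 15159038 to 15200981, minus strand, GRCh38) is the receptor best known from vascular smooth muscle and pericytes. It stood at 47.0, 43.2 and 45.3 FPKM (fragments per kilobase of gene length, scaled for library size) in the DLX5 libraries and at 16.0, 13.6 and 16.3 FPKM in the controls. Every DLX5 library lay above every control. Its log2 fold change was 1.56 with a standard error of 0.07 (adjusted p = 6.99e-17), and 6.9% of all tested genes rose as much or more. Markers of pericytes and smooth muscle did not move one way beside it. Of 10 tested, 5 were higher and 2 lower, where 29.8% and 28.8% of all tested genes were. ABCC9, among the 5, reached the level of the low-count filter in 3 DLX5 libraries but only 1 control library. The summed level of these markers was 1390 to 1481 CPM with DLX5 against 4518 to 5054 CPM in control, most of the control sum being RGS5.

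NOTCH2 (ENSG00000134250, chromosome 1, 119911553 to 120069626, minus strand) and NOTCH1 (ENSG00000148400, chromosome 9, 136494433 to 136545786, minus strand) are broadly expressed receptors that rose less. NOTCH2 was at 16.9, 16.7 and 15.7 FPKM with DLX5 and at 12.1, 11.7 and 13.7 FPKM in control, a log2 fold change of 0.40 ± 0.06 (± standard error, adjusted p = 5.99e-06). NOTCH1 was at 6.23, 5.57 and 6.09 FPKM against 4.11, 3.09 and 4.23 FPKM, a log2 fold change of 0.65 ± 0.09 (adjusted p = 7.55e-07). The groups did not overlap for either gene, though in both the gap between the nearest libraries was small beside that of NOTCH3. Parts of NOTCH2 are near-identical to the NOTCH2NL copies and to a pseudogene. The counting gave NOTCH2NLA 1 read and NOTCH2P1 1 read over all libraries, against 23690 for NOTCH2, and the sources used here do not state how reads shared by the copies were treated.

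NOTCH4 (ENSG00000204301, chromosome 6, 32194843 to 32224067, minus strand), a receptor known mainly from endothelium, was the receptor that fell. It stood at 0.452, 0.442 and 0.432 FPKM with DLX5 and at 1.30, 1.00 and 0.993 FPKM in control, so the groups did not overlap at a low level. Its log2 fold change was -1.30 ± 0.15 (adjusted p = 3.48e-08), or 2.47-fold lower. NOTCH4 shares 98 exon bases with its neighbour GPSM3 on the same strand, which took 24.0% as many reads. The 12 endothelial markers summed to 15.1 to 16.1 CPM with DLX5 and 7.67 to 9.44 CPM in control. Of the 8 tested, FLT1, PECAM1 and TEK were higher and 0 were lower, where 29.8% and 28.8% of all tested genes were. However, PECAM1 and TEK passed the filter on low counts only through the DLX5 libraries. CDH5, the endothelial cadherin, had 0 control reads and 1 read with DLX5.

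Together the 4 receptors summed to 68.0 ± 2.30 FPKM with DLX5 and 32.7 ± 3.01 FPKM in control (SD, n = 3). NOTCH3 made up 66.4% ± 0.817 of this sum with DLX5 against 46.8% ± 0.811 in control, and NOTCH2 24.2% ± 1.10 against 38.2% ± 1.89. The ratio of NOTCH3 to NOTCH2 in FPKM was 2.79, 2.58 and 2.89 in the DLX5 libraries and 1.32, 1.16 and 1.19 in the controls. In CPM, which is not divided by gene length, NOTCH2 led in the controls, at 212 against 145 for NOTCH3 on average. With DLX5 NOTCH3 led in CPM too, at 428 against 279 for NOTCH2. NOTCH1 kept a small share, 8.76% ± 0.295 against 11.6% ± 0.946, although its own level rose.

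**Figure D2:**
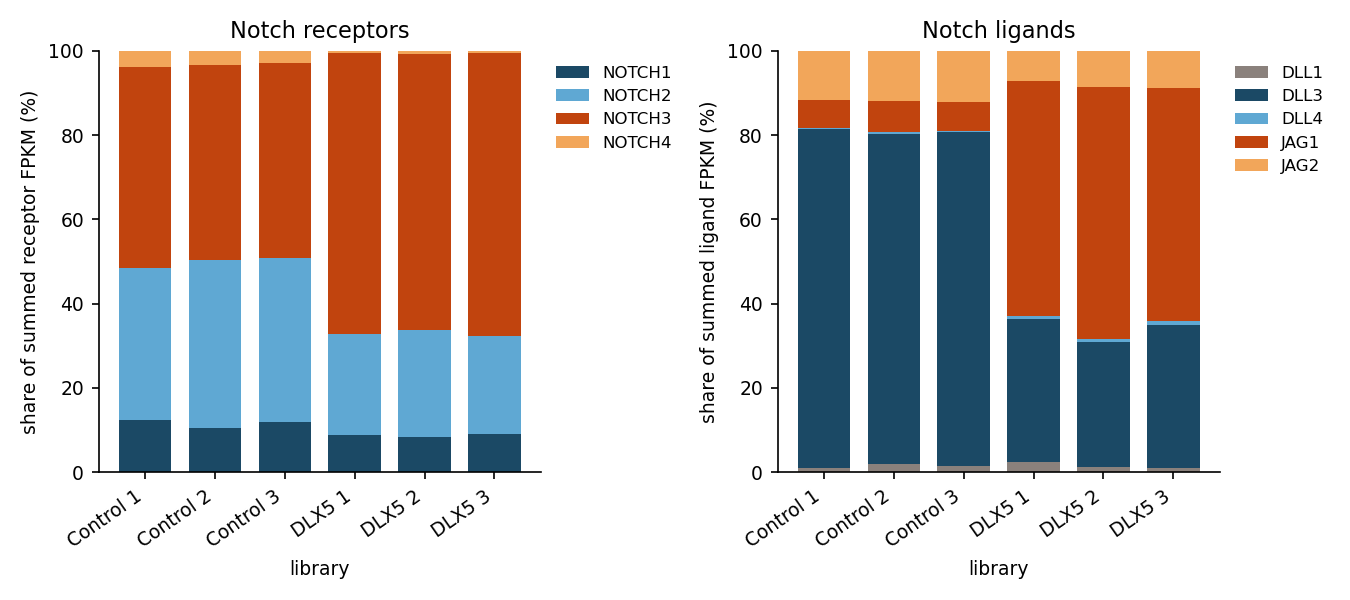
Share of each gene in the summed FPKM of the 4 receptors (left) and the 5 ligands (right), in percent, one bar per library. NOTCH3 takes 66.4% of the receptor sum with DLX5 on average and 46.8% in control, and the leading ligand is DLL3 in the controls and JAG1 in the DLX5 libraries.

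Among the ligands the order turned over. JAG1 (ENSG00000101384, chromosome 20, 10637684 to 10673999, minus strand) encodes a trans-activating ligand with known roles in vessels, bile ducts and bone. It was at 17.9, 17.1 and 17.3 FPKM with DLX5 and at 2.15, 1.96 and 1.97 FPKM in control. The lowest DLX5 library was far above the highest control, and within each group the libraries were close together. The fitted log2 fold change of JAG1 was 3.11 ± 0.07 (adjusted p = 6.89e-23). Of all tested genes, 2.48% rose as much or more. An antisense gene that shares 79 exon bases with JAG1 had 0 reads.

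DLL3 (ENSG00000090932, chromosome 19, 39498895 to 39508481, plus strand) encodes a divergent Delta protein that stays largely inside the cell and is known as an inhibitor in the same cell, and it is a marker of neuroendocrine tumours. It was at 10.8, 8.49 and 10.6 FPKM with DLX5 and at 25.5, 20.6 and 22.4 FPKM in control. The highest DLX5 library lay well below the lowest control. The fitted log2 fold change of DLL3 was -1.19 ± 0.09 (adjusted p = 1.83e-11), and 3.71% of tested genes fell as much or more.

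JAG2 (ENSG00000184916, chromosome 14, 105140981 to 105168824, minus strand), the other Jagged ligand, changed against JAG1. It was at 2.27, 2.43 and 2.77 FPKM with DLX5 and at 3.71, 3.11 and 3.41 FPKM in control, without overlap but with a narrow gap. The log2 fold change was -0.45 ± 0.10 (adjusted p = 0.000454).

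The remaining Delta ligands were scarce. DLL4 (ENSG00000128917, chromosome 15, 40929333 to 40939073, plus strand), known from sprouting vessels, had 21, 15 and 22 reads in the DLX5 libraries and 5, 8 and 6 in the controls, or 0.202 to 0.278 FPKM against 0.0698 to 0.0998 FPKM. The log2 fold change was 1.58 ± 0.40 (adjusted p = 0.00142), and the ratio of scaled counts was 3.02 with an exact 95% binomial interval of 1.77 to 5.37 that covers counting error only. DLL4 passed the low-count filter through its DLX5 libraries alone, so its being tested at all depended on its being higher there. Of the 8 endothelial markers tested, 3 were higher, where 29.8% of all tested genes were. FLT1 had 193 reads with DLX5 and 73 in control, TEK 111 and 6, and PECAM1 41 and 2. TEK and PECAM1 also passed the filter through the DLX5 libraries alone. The other 5 did not pass. Among these, ESAM with 80 and 91 reads and ROBO4 with 39 and 40 leaned lower, and TIE1, VWF and CLDN5 leaned higher. The part of such markers in the rise of DLL4 was not tested.

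DLL1 (ENSG00000198719, chromosome 6, 170282206 to 170306565, minus strand), the Delta ligand of the early nervous system, had 41, 17 and 16 reads with DLX5 and 16, 29 and 23 in control. DLX5 replicate 1 was high, at 2.47 CPM. DLX5 replicates 2 and 3, at 1.10 and 0.974 CPM, lay near the lowest control, at 1.07 CPM. Its log2 fold change was 0.11 (95% interval -0.60 to 0.82, adjusted p = 0.812), so at this depth a change of the size of that of NOTCH2 or JAG2 in either direction was not detectable. Without DLX5 overexpression replicate 1 the log2 fold change was -0.44 and without control replicate 1 it was -0.05, neither of which passed. Its bounds overlap those of FAM120B on the other strand, which took 5782 reads against 142 for DLL1, though the exons of the genes do not overlap.

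The 5 ligands summed to 30.6 ± 1.80 FPKM with DLX5 and 28.8 ± 2.76 FPKM in control (SD, n = 3), and the libraries of the groups overlapped in this sum. On the FPKM scale its makeup differed far more than its size. DLL3 held 79.3% ± 0.996 of it in control and 32.6% ± 2.46 with DLX5, and JAG1 7.05% ± 0.359 in control and 57.0% ± 2.53 with DLX5. The ratio of JAG1 to DLL3 was 1.65, 2.01 and 1.62 in the DLX5 libraries and 0.0840, 0.0951 and 0.0878 in the controls. JAG1 and JAG2 together made up 65.1% ± 2.88 of the ligand sum with DLX5 against 18.9% ± 0.429. The ratio of receptor to ligand FPKM was 2.22 ± 0.0763 against 1.14 ± 0.0987. In CPM, which is not divided by gene length, the 5 ligands summed to 199.9 to 215 with DLX5 and 95.19 to 112.8 in control, without overlap. The 4 receptors summed to 753.1 to 802 CPM against 369.5 to 440 CPM. Both sums were thus higher with DLX5 in CPM. The near-equal ligand sum and the shift of the ratio hold on the FPKM scale only.

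LFNG (ENSG00000106003, chromosome 7, 2512529 to 2529177, plus strand), the fringe enzyme whose sugar is known to favour Delta over Jagged in the activation of NOTCH1, had the largest fall of the 10 genes. It was at 6.02, 5.55 and 6.29 FPKM with DLX5 and at 22.7, 20.9 and 21.7 FPKM in control. The groups were widely apart and the libraries within each were close. The log2 fold change was -1.87 ± 0.08 (adjusted p = 3.09e-17), and 1.22% of tested genes fell as much or more. The other fringes went up. MFNG rose by 0.75 ± 0.24 and RFNG, named after its values were seen, by 0.33 ± 0.08 (log2 fold change ± standard error). The libraries overlapped for RFNG, which shares 835 exon bases with the more abundant GPS1 on the other strand. MFNG missed the threshold with DESeq2 (adjusted p = 0.0565) and when DLX5 overexpression replicate 3 was left out (adjusted p = 0.0601). The summed fringe level went from 37.4 ± 2.06 to 25.8 ± 2.96 FPKM, and the share of LFNG in it from 58.3% ± 0.734 to 23.2% ± 1.39.

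**Figure D3:**
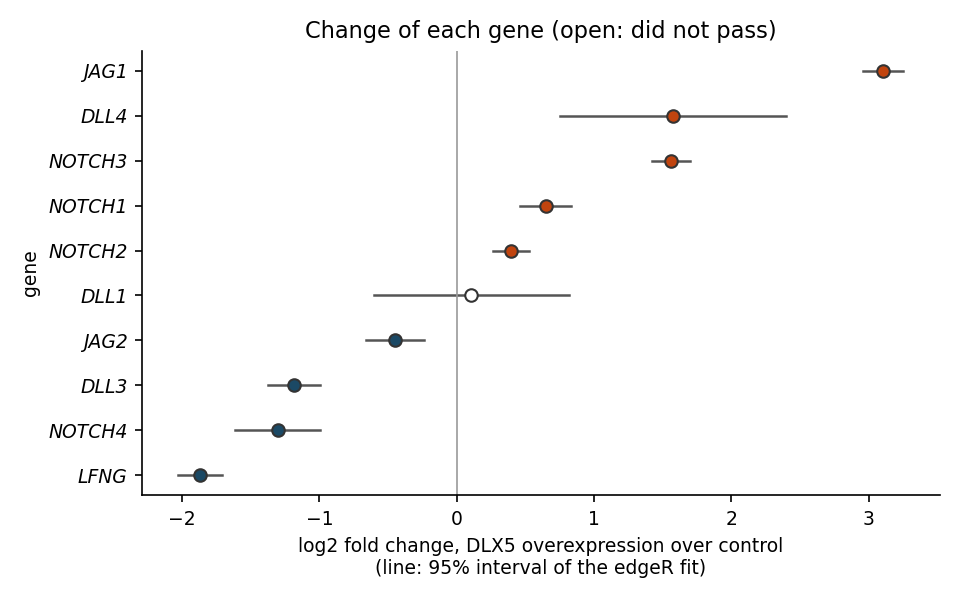
Log2 fold change of the 10 genes, DLX5 overexpression over control, with the 95% interval of the edgeR fit as a line. Filled dots passed at an adjusted p under 0.05, and the open dot, DLL1, did not. JAG1 is the highest at 3.11 and LFNG the lowest at -1.87, and the intervals of DLL1 and DLL4 are the widest.

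By level, the controls were led by DLL3 at 22.8 FPKM on average and LFNG at 21.8 FPKM, whose libraries overlapped, followed by NOTCH3 and NOTCH2, which overlapped too. NOTCH1 and JAG2 came next and overlapped, ahead of JAG1, NOTCH4, DLL1 and DLL4, each separate from its neighbour. With DLX5 the order was NOTCH3 at 45.2 FPKM, JAG1 at 17.4 FPKM, NOTCH2 at 16.4 FPKM and DLL3 at 10.0 FPKM, with no overlap between these neighbours. NOTCH1 and LFNG followed at 5.96 and 5.95 FPKM and could not be ordered, then JAG2, then DLL1 and NOTCH4, which overlapped, and DLL4 last. FPKM divides by the gene length given in the table, so a gene with unused exons is understated.

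Other genes of the pathway were taken from 7 lists, of 94 genes in all, by the step they serve. Of these, 88 were in the table and 76 were tested: 28 were higher, 33 lower and 15 did not pass, so 80.3% passed against the background of 58.6%. Of the 67 with a mean of at least 10 CPM, 80.6% passed, against 67.5% of all tested genes at that level. Changes that passed and were at least 2-fold were found in 19.7% of the 76, beside 16.4% of all tested genes. The median log2 fold change was -0.05.

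In receptor glycosylation 5 of 10 tested genes rose and 4 fell, with 29.8% and 28.8% over all tested genes. GXYLT2, which extends O-glucose with xylose, rose by 1.16 ± 0.11, KDELC2, an O-glucosyltransferase, by 0.96 ± 0.06 and EOGT, which adds O-linked GlcNAc, by 0.93 ± 0.12 (log2 fold change ± standard error). GXYLT2 shares 62 exon bases with the more abundant PPP4R2. The 4 that fell, named after their values were seen, did so by 0.46 for XXYLT1, 0.31 for GXYLT1, 0.29 for POGLUT1 and 0.16 for POFUT1 on the log2 scale. In receptor cleavage 6 of 9 rose and 2 fell. FURIN, the protease of the first maturation cut, rose by 0.93 ± 0.07 and ADAM10, the sheddase of the ligand-induced cut, by 0.53 ± 0.06. Of gamma-secretase, APH1B rose by 0.78 ± 0.10 and NCSTN by 0.56 ± 0.06, whereas PSEN2 fell by 0.62 ± 0.09. NCSTN shares 129 exon bases with the more abundant COPA on the other strand.

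Genes of ligand and receptor trafficking and turnover went both ways, 6 of 18 higher and 8 lower, with 29.8% and 28.8% over all tested genes. The Deltex ubiquitin ligases, which bind the intracellular part of Notch, diverged most. DTX4 was at 65.3, 61.7 and 63.1 CPM with DLX5 and at 3.02, 3.48 and 4.26 CPM in control, a 17.6-fold rise (log2 fold change 4.14 ± 0.11, adjusted p = 9.86e-22). DTX1, itself known as a Notch target, was at 24.4, 26.3 and 25.9 CPM with DLX5 and at 76.8, 65.9 and 69.2 CPM in control (log2 fold change -1.47 ± 0.08, adjusted p = 6.05e-15). The groups did not overlap in either gene. DTX3L rose by 0.84 ± 0.08 and shares 217 exon bases with PARP9 on the other strand. NEURL1, a ubiquitin ligase of the Neuralized family, fell by 1.49 ± 0.12, and MIB1, the main ligase that drives ligand uptake, fell by 0.26 ± 0.06.

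In the nuclear complex 3 of 16 tested genes were higher, 5 were lower and 8 did not pass, so 8 of 16 were called, near the 58.6% of all tested genes. RBPJ stood at 82.0 CPM on average with DLX5 and 76.0 CPM in control, a log2 fold change of 0.11 ± 0.07 (adjusted p = 0.184). MAML1 had a log2 fold change of 0.15 ± 0.07 (adjusted p = 0.0685) and passed when either DLX5 overexpression replicate 2 (adjusted p = 0.0191) or control replicate 1 (adjusted p = 0.0272) was left out. MAML2, another Mastermind coactivator, was at 38.3, 41.3 and 36.2 CPM with DLX5 and at 10.5, 13.7 and 12.2 CPM in control, with no overlap (log2 fold change 1.67 ± 0.10, adjusted p = 5.50e-14). MAML3 fell by 0.36 ± 0.06, and the share of MAML2 in the summed FPKM of the Mastermind genes went from 6.13% ± 0.936 to 18.1% ± 1.76. HDAC2, a histone deacetylase, fell by 0.48 ± 0.06, and BEND6, a corepressor of Notch targets in neurons, fell by 0.72 ± 0.14.

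Known target genes were split. Of 11 tested, 4 rose, 6 fell and HES5 did not pass, where 29.8% of all tested genes rose and 28.8% fell. The median log2 fold change of the 11 was -0.39. HES1 was at 27.7, 27.2 and 25.2 CPM with DLX5 and at 8.17, 7.37 and 6.70 CPM in control. The libraries were fully apart, and the log2 fold change was 1.85 ± 0.11 (adjusted p = 4.06e-14). HES7, an oscillating repressor of the somite clock, was at 30.0, 23.4 and 34.8 CPM against 10.9, 8.75 and 10.5 CPM (log2 fold change 1.55 ± 0.12, adjusted p = 3.31e-11). HEY1 went the other way, at 14.3, 15.4 and 13.5 CPM against 21.8, 25.5 and 25.3 CPM, again with no overlap (log2 fold change -0.75 ± 0.10, adjusted p = 2.90e-07). NRARP, a feedback inhibitor of the pathway, fell by 0.40 ± 0.12 (log2 fold change ± standard error), and it is named here because of that value. CCND1, which many other signals also drive, fell by 1.13 ± 0.06. HEY2 and HEYL had 1 and 0 reads over the DLX5 libraries and 2 and 4 over the controls, too few to test.

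Proneural and related genes, listed as ones that HES repressors hold down, were lower in the 4 cases that entered the test, of 8 listed. Of all tested genes, 28.8% were lower. One of the 4, NEUROG2, passed the filter on low counts only through the controls and so had to be lower. NEUROD1 reached the level of that filter in 3 control libraries and 2 DLX5 libraries, so its DLX5 libraries alone would not have carried it past. HES6, a HES family member that counters HES1 and is not itself a proneural gene, fell by 0.58 ± 0.09 (log2 fold change ± standard error). NEUROD1, which shares 236 exon bases with the more abundant CERKL, fell by 1.93 ± 0.31. NEUROG2, named after its values were seen, had 3 reads with DLX5 and 48 in control, a ratio of 0.0618 with an exact 95% binomial interval of 0.0123 to 0.192 that covers counting error only.

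Noncanonical ligands and modulators all passed, 4 of 8 tested higher and 4 lower, with 29.8% and 28.8% over all tested genes. MFAP5, a microfibril protein reported to bind Jagged and Notch proteins, was at 295, 301 and 301 CPM with DLX5 and at 4.49, 3.96 and 3.23 CPM in control. This is a 77.0-fold rise (log2 fold change 6.27 ± 0.09, adjusted p = 7.56e-27). DLK1, a membrane protein of the Delta family that lacks the receptor-binding domain of the canonical ligands, was at 62.2, 59.0 and 66.5 CPM against 212, 206 and 202 CPM (log2 fold change -1.72 ± 0.06, adjusted p = 2.27e-18). The groups were far apart in both genes. CNTN1, a neural adhesion molecule, fell by 1.35 ± 0.07, and THBS2, a matrix thrombospondin with only 4.47 CPM in the controls, fell by 1.67 ± 0.24.

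**Figure D4:**
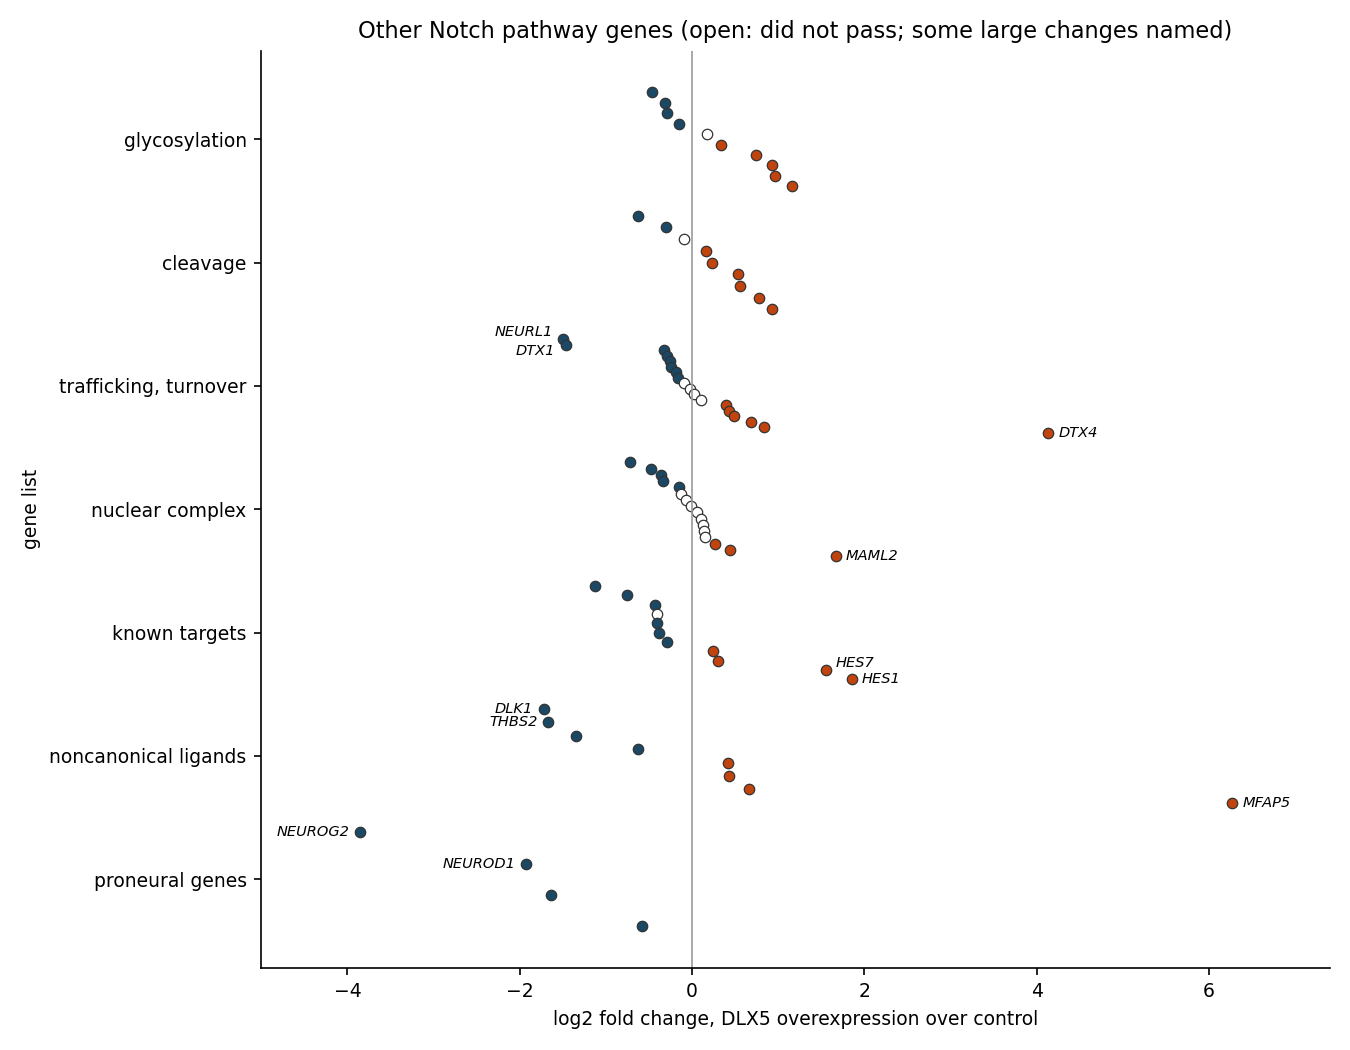
Log2 fold change of the 76 tested pathway genes outside the 10, DLX5 overexpression over control, by list, each dot a gene. Orange dots passed as higher, blue dots as lower, and open dots did not pass. MAML2 at 1.67 stands apart from the rest of the nuclear complex, and MFAP5 at 6.27 and DTX4 at 4.14 lie farthest to the right.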

How the data were processed

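Per the labels' protocols, a NEBNext Ultra kit was used on total RNA of all 6 samples. The deposited counts are whole reads per gene and library, made by the authors. The deposited FPKM values equal these counts over the gene length in the file and a scaled library total of 0.968 to 1.03 times the sum of counts, so they are not independent of them. HISAT2 2.0.5, featureCounts 1.5.0-p3 and hg19 are named in the submitters' processing notes. All 58735 genes nevertheless match GENCODE 29 on GRCh38 in identifier, start and end, and coordinates are given as GRCh38. The sources used here do not state a strand setting, and without one a gene and an overlapping gene on the other strand cannot be told apart.

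Counts of all 6 libraries were fitted with edgeR 4.0.16 in R 4.3.3: filterByExpr with the group, TMM scaling, the two-sided quasi-likelihood test with no covariate, and p-values adjusted by Benjamini and Hochberg's method across the 17269 genes that entered the test (threshold 0.05). The filter asks for about 0.617 CPM in 3 libraries. The standard error is the change over the square root of F. The biological coefficient of variation was 6.17%. The test was checked on simulated counts. An exact permutation test of 3 libraries against 3 cannot give a p under 0.1. Replicates differed by more than sampling noise (chi-square over degrees of freedom 2.32 to 5.52), so none was taken for a copy. The pathway and marker lists came from textbook knowledge. Members and lists were chosen with earlier results of these data known. From each pathway list up to 4 genes were named that passed, had a mean of at least 1 CPM and changed most, with 11 core genes added whatever their values. Some genes of this rule are not reported here. Schwann and glial markers (3 of 7 tested higher, 3 lower, with S100B tested only through the controls) and blood cell markers (0 of 1 passed) were checked too. Promoters were read from the RefSeq table. Alternatives used limma 3.58.1 and DESeq2 1.42.0, and figures matplotlib 3.10.9.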

Additional observations from a re-analysis of the deposited data

How the results depend on the processing

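The 17 other settings were RLE and upper-quartile factors, library totals with no scaling factors, DESeq2, limma-voom, no filter, a filter of 1 CPM in 3 libraries, limma on log2(FPKM + 1) and log2(FPKM + 0.1), a block for the replicate number, a threshold of 0.01, and each library left out. In all of them NOTCH1, NOTCH2, NOTCH3, JAG1, NOTCH4, DLL3, JAG2 and LFNG kept their direction and passed, and so did DLL4 in the 16 that tested it. The filter of 1 CPM in 3 libraries removed DLL4, which left 8 of the 10 genes called. The log2 fold change ran from 2.61 to 3.15 for JAG1, 1.48 to 1.61 for NOTCH3, -1.93 to -1.71 for LFNG and -1.26 to -1.08 for DLL3. On log2(FPKM + 1), a scale that compresses low values, that of DLL4 was 0.21 and that of NOTCH4 -0.54, against -1.37 to -1.13 for NOTCH4 in the other settings. DLL1 did not pass in any setting and changed sign without DLX5 overexpression replicate 1 (-0.44) and without control replicate 1 (-0.05), with a range of -0.44 to 0.35 over the libraries left out. The counts of pathway genes called ran from 52 with DESeq2 to 62 with the replicate block, and of all genes from 8388 at the threshold of 0.01 to 10481 with no filter. The median of all genes moved by at most 0.07 in size with the scaling (-0.0669 with library totals).

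The replicate numbers pair the libraries only by name. Deviations from the group mean correlated at 0.02, 0.12 and -0.06 over genes for numbers 1, 2 and 3. The replicate block gave 10224 genes called in place of 10121, and 9 of the 10 Notch genes in both. Among named genes it changed the call of MAML1 only (adjusted p = 0.0462). Depth limits DLL1 and DLL4, with 142 and 77 reads over all libraries.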
